A study of Homo sapiens with 6 samples.

Results

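The cornified envelope genes and the grainyhead-like factors GRHL1 and GRHL3 were examined in L3.6pl cells, an established human pancreatic ductal adenocarcinoma line, sorted by FACS for high or low surface L1CAM (L1high and L1low). The genes were chosen by symbol, with earlier results of these data known. They are the transglutaminases TGM1 and TGM2, the envelope proteins CNFN, EVPL, PPL, SPRR1B, IVL and SCEL, and the factors GRHL1 and GRHL3. Of these 10 genes, 8 had a row among the 19469 genes of the count table. SPRR1B and IVL had none, so their levels were not analysed here. RNA was sequenced in 3 L1high and 3 L1low libraries from untreated cells grown in DMEM with fetal bovine serum, and dead cells were excluded by 7AAD at sorting. The sample labels write the line as L6.6pl, while the titles and the study write L3.6pl. Both fractions came from the same line, and nothing in the labels says that the 3 libraries of a group came from separate cultures or sorts, so the p-values measure the spread between these libraries.

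The cornified envelope is the insoluble protein shell that keratinocytes build beneath their plasma membrane at the end of differentiation. Plakins such as periplakin and envoplakin are laid down first, involucrin, small proline-rich proteins, sciellin and cornifelin are added, and transglutaminases cross-link them. Grainyhead-like factors are transcription factors of surface epithelia, and GRHL3 and GRHL1 act in formation of the epidermal barrier, where TGM1 and desmosomal cadherins are among their known targets. Squamous programs of this kind can also be found in some pancreatic carcinomas, and the labels of this line give its disease as adenosquamous carcinoma.

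Library totals ran from 16334610 to 21064685 counts, and each of the 19469 genes exceeded 1 CPM (read counts scaled to the library total) in at least 2 libraries. The sorting marker L1CAM stood between 69.8 and 89.5 CPM in the L1high libraries and between 17.7 and 23.7 CPM in the L1low libraries, so its RNA was lower but not lost in the L1low fraction. The 5 epithelial markers all had rows, with KRT8 at 991 ± 77.9 and 847 ± 48.4 CPM and EPCAM at 237 ± 26.9 and 193 ± 6.99 CPM in L1high and L1low cells (mean ± SD, n = 3 each). By edgeR, KRT19 was called higher (log2 fold change 0.63) and EPCAM lower (-0.30) in L1low cells, and the other 3 were not called. Of 7 fibroblast markers only COL3A1 and LUM had rows. Their summed level ran from 79.9 to 90.8 CPM in L1high and from 131 to 151 CPM in L1low libraries, nearly all of it LUM, which was called higher (0.78), while COL1A2, PDGFRA, PDGFRB, DCN and THY1 had no row. Of 5 endothelial and 6 immune markers, PECAM1 and CD68 alone had rows, and neither was called. The part of the LUM signal in the results below was not tested. In bulk RNA, a lower level per cell and fewer cells with the transcript cannot be told apart.

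In L1low against L1high cells the genes moved both ways, with the cross-linking enzyme TGM1 and the plakin PPL higher and both GRHL factors lower. That genes of this set moved both ways was known when they were chosen, so the counts below are a description. By edgeR's quasi-likelihood test over all 6 libraries, 2 of the 8 genes were called higher (TGM1 and PPL) and 2 lower (GRHL3 and GRHL1), with an adjusted p below 0.05 taken as a call. The share called among all 19467 genes was 7.95%, made up of 4.58% higher and 3.37% lower. In the 5 libraries of the study's own table, which omits L1high replicate 3, the call of GRHL1 was lost and 3 genes were left, against 7.57% of all genes. The L1low and L1high libraries were fully separated in 6 of the 8 genes (4 higher, 2 lower), as in 28.8% of all genes (15.2% higher, 13.7% lower). The median log2 fold change of the 8 genes was 0.08, against -0.0087 over all genes tested. Positive values stand for higher levels in L1low throughout.

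**Figure D1:**
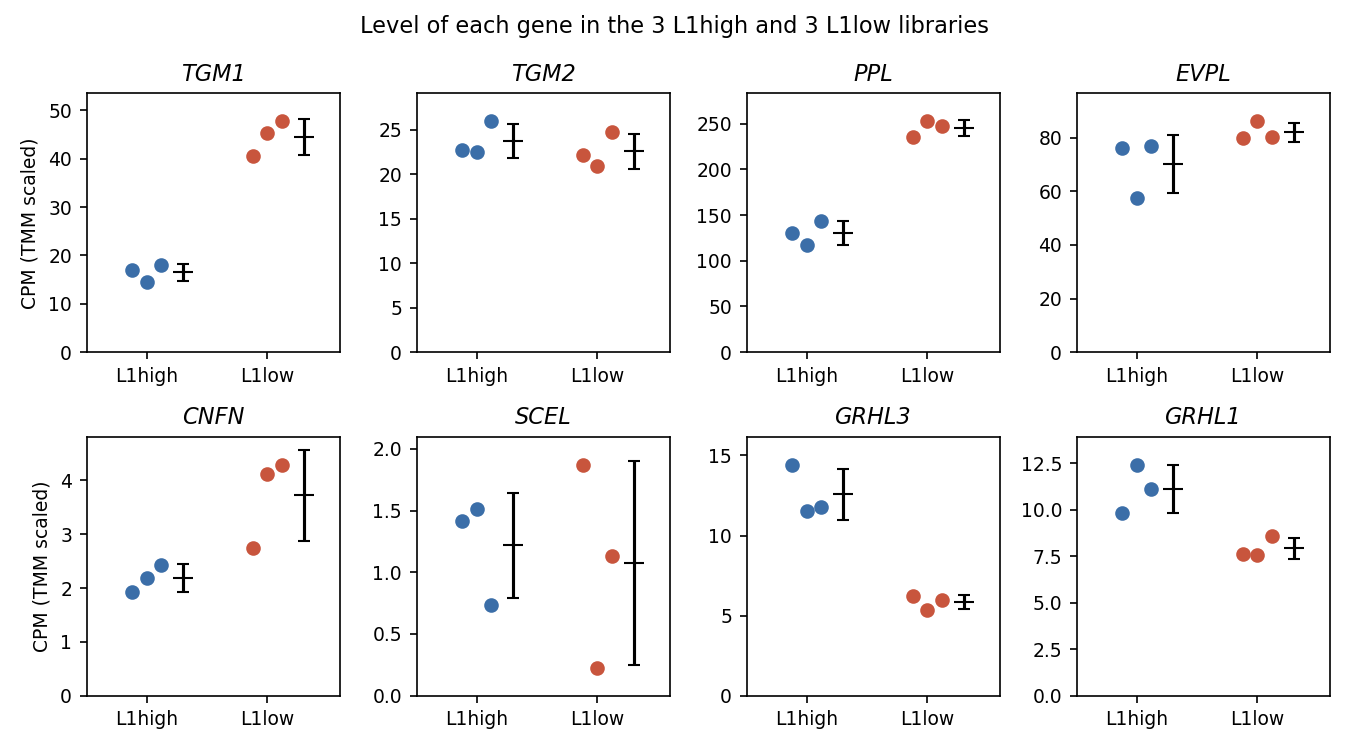
Level of each gene in CPM scaled by TMM factors (vertical axis, from 0) in the 3 L1high (blue) and 3 L1low (red) libraries, with the mean and SD beside them (n = 3). TGM1 and PPL lie higher and GRHL3 and GRHL1 lower in every L1low library than in any L1high library, while TGM2 and SCEL overlap.

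TGM1 (ENSG00000092295, chromosome 14, GRCh38, from 24249114 to 24264432, minus strand) encodes the membrane-anchored transglutaminase of keratinocytes. It stood at 17.0, 14.6 and 18.0 CPM in L1high replicates 1, 2 and 3 and at 40.6, 45.3 and 47.8 CPM in L1low replicates 1, 2 and 3. All L1low libraries thus lay above all L1high libraries, with a gap of 22.5 CPM between the nearest of them. The raw counts behind these levels ran from 296 to 360 in L1high and from 737 to 846 in L1low libraries. TGM1 rose with a log2 fold change of 1.43 ± 0.11 (SE), which passed edgeR's quasi-likelihood test with an adjusted p of 9.3e-06. This is 2.70-fold with a 95% interval from 2.30 to 3.17. The call held in each of 13 alternatives, which included each library left out in turn.

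TGM2 (ENSG00000198959, minus strand of chromosome 20 from 38127385 to 38166578) encodes tissue transglutaminase, the widely expressed member of the family. Its level was 22.7, 22.5 and 26.0 CPM in the L1high libraries and 22.1, 20.9 and 24.7 CPM in the L1low libraries, so the groups overlapped. The log2 fold change of -0.07 was not called (adjusted p = 0.73 by the same edgeR test), and its 95% interval ran from -0.29 to 0.16. Exons of RPRD1B overlap those of TGM2 on the opposite strand. RPRD1B stood at 42.3 CPM in L1high and 44.6 CPM in L1low cells, and the strand option of the counting is not given in the sources used here.

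The ratio of TGM1 to TGM2 within a library, each per kilobase of exon, does not depend on the scaling between libraries. It was 1.59, 1.38 and 1.48 in the L1high libraries and 3.90, 4.61 and 4.11 in the L1low libraries. The ratio was thus higher in all 3 L1low libraries, with a difference of 1.503 on the log2 scale. An exact two-sided permutation test over the 6 libraries gave p = 0.1, the smallest that 3 against 3 allows (adjusted p = 0.1 over the 3 ratios compared, which were picked with the values known).

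Among the envelope proteins, PPL (ENSG00000118898, minus strand of chromosome 16 from 4882507 to 4960741) encodes periplakin, which links the envelope to intermediate filaments. It stood at 130, 117 and 143 CPM in the L1high libraries and at 236, 253 and 247 CPM in the L1low libraries. No library of either group came near the other, with a gap of 92.4 CPM. PPL rose with a log2 fold change of 0.91 ± 0.08 (SE) and an adjusted p of 3.2e-05 in edgeR's quasi-likelihood test, or 1.88-fold with a 95% interval from 1.67 to 2.12. It too was called in all 13 alternatives.

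EVPL (ENSG00000167880, minus strand of chromosome 17 from 76004502 to 76027306) encodes envoplakin, the partner with which periplakin forms heterodimers. It stood at 76.0, 57.6 and 76.9 CPM in the L1high libraries and at 79.7, 86.1 and 80.2 CPM in the L1low libraries. The L1low libraries were the 3 highest, but the gap to L1high replicate 3 was only 2.76 CPM, and L1high replicate 2 stood apart below. The log2 fold change of 0.23 ± 0.10 (SE) was not called (adjusted p = 0.22 by edgeR's quasi-likelihood test), with a 95% interval from -0.0024 to 0.45. Without L1high replicate 2 it was 0.10.

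The ratio of PPL to EVPL per kilobase of exon was 1.64, 1.94 and 1.78 in the L1high libraries. It was 2.83, 2.81 and 2.95 in the L1low libraries, again without overlap. The difference was 0.68 on the log2 scale, with p = 0.1 by the exact permutation test, the smallest possible (adjusted p = 0.1 over the 3 ratios).

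CNFN (ENSG00000105427, minus strand of chromosome 19 from 42387019 to 42390297) encodes cornifelin, a small cysteine-rich envelope protein. It was a low gene here, with 41, 45 and 40 counts in the L1high libraries and 50, 74 and 76 counts in the L1low libraries. These are 1.93, 2.19 and 2.44 CPM against 2.75, 4.12 and 4.29 CPM, so the groups did not overlap, but L1low replicate 1 lay only 0.32 CPM above the highest L1high library. The log2 fold change of 0.77 (SE 0.22, 95% interval from 0.29 to 1.25) missed the threshold (adjusted p = 0.054 by edgeR's quasi-likelihood test). It was called without L1low replicate 1 (0.95, adjusted p = 0.022 by the same edgeR test).

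SCEL (ENSG00000136155, plus strand of chromosome 13 from 77535674 to 77645263) encodes sciellin, a further substrate of transglutaminases. It was close to the lower limit of the table, with 30, 31 and 12 counts in the L1high libraries and 34, 4 and 20 counts in the L1low libraries. The level within the L1low group alone ran from 0.22 to 1.87 CPM, a range that holds all L1high libraries. The log2 fold change of -0.20 had a 95% interval from -1.33 to 0.92 (adjusted p = 0.85 by edgeR's quasi-likelihood test), so a change was not detectable at this depth in either direction. Without L1low replicate 2 the value was 0.28.

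**Figure D2:**
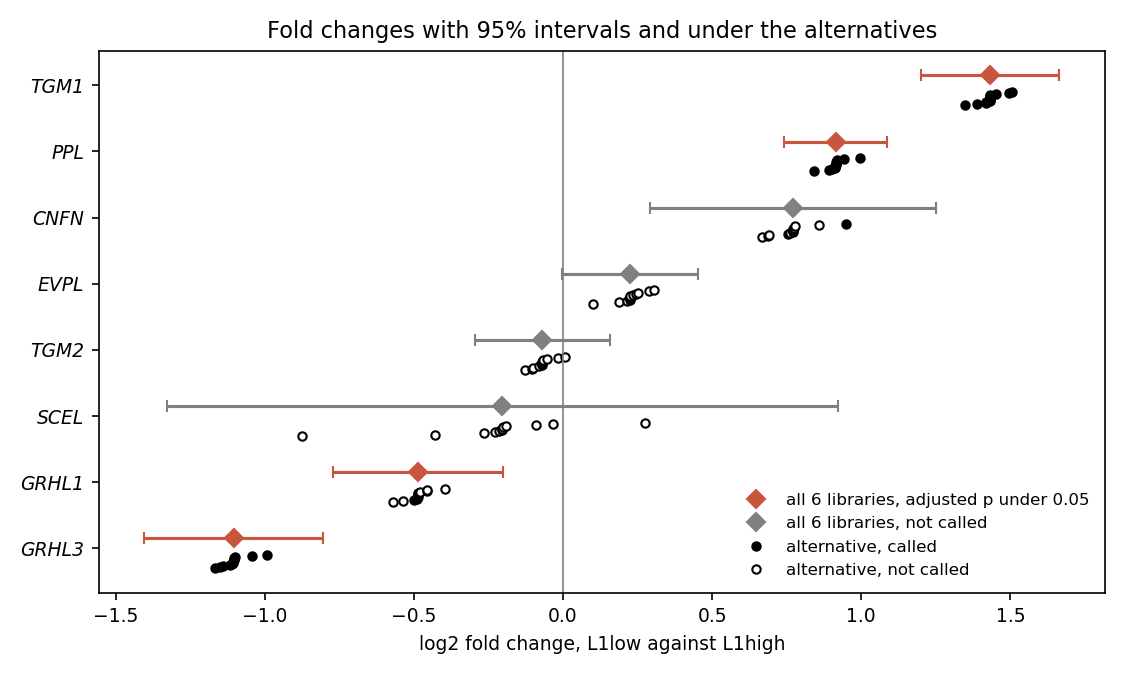
Log2 fold change of L1low against L1high cells (horizontal axis) for each of the 8 genes, with diamonds for all 6 libraries, bars for the 95% interval, and circles for the alternatives. TGM1, PPL and GRHL3 keep filled circles throughout, GRHL1 loses its call in 6 of 13 alternatives, and SCEL has the widest interval, from -1.33 to 0.92.

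GRHL3 (ENSG00000158055, plus strand of chromosome 1 from 24199558 to 24364482) encodes the factor most closely tied to barrier formation in the epidermis. It stood at 14.4, 11.5 and 11.8 CPM in the L1high libraries and at 6.22, 5.35 and 5.99 CPM in the L1low libraries. Every L1low library was lower than every L1high library, by at least 5.32 CPM. The raw counts ran from 193 to 306 and from 96 to 113. The log2 fold change of GRHL3 was -1.10 ± 0.14 (SE) and passed edgeR's quasi-likelihood test with an adjusted p of 4.5e-04. The level thus fell to 0.465 of its L1high level with a 95% interval from 0.378 to 0.572. This call held in all 13 alternatives. STPG1, which overlaps the GRHL3 locus on the opposite strand without sharing exons, had a log2 fold change of -0.02.

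GRHL1 (ENSG00000134317, plus strand of chromosome 2 from 9951693 to 10002277) encodes the related factor known for its control of desmosomal cadherin genes. It stood at 9.80, 12.4 and 11.1 CPM in the L1high libraries and at 7.60, 7.58 and 8.58 CPM in the L1low libraries. The groups did not overlap, and the gap between them was 1.22 CPM. The log2 fold change of GRHL1 was -0.49 ± 0.13 (SE), and its adjusted p of 0.043 in edgeR's quasi-likelihood test lay just inside the threshold. The level fell to 0.714 of its L1high level with a 95% interval from 0.585 to 0.870. The call was lost in each of the 6 fits that left out a library, with adjusted p from 0.057 to 0.17 by the same edgeR test and log2 fold changes from -0.57 to -0.40. This included the study's own set of 5 libraries, which leaves out L1high replicate 3 (-0.48, adjusted p = 0.077 by edgeR). GRHL2, the third paralog, had no row and was not analysed here.

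The ratio of GRHL3 to GRHL1 per kilobase of exon was 2.74, 1.73 and 1.98 in the L1high libraries and 1.53, 1.32 and 1.30 in the L1low libraries. GRHL3 thus stood above GRHL1 per exon length in every library, and the ratio was lower in all L1low libraries, by 0.62 on the log2 scale (p = 0.1 by the exact permutation test, the smallest possible, and adjusted p = 0.1 over the 3 ratios).

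The windows of 250 bases upstream of the GRHL1 start and of both RefSeq starts of GRHL3 are shown because the levels of both factors were lower in L1low cells. They come from a table of RefSeq promoters on GRCh38.p14, in which 6 of the 10 genes were matched. Windows of TGM1, TGM2, EVPL and PPL were not analysed here. Nor was that of the GENCODE start of GRHL3 (24199558), which lies upstream of both starts used. GRHL1 lies at chr2:9951443-9951692 and GRHL3 at chr1:24319107-24319356 and chr1:24322790-24323039, all on the plus strand and written 5′ to 3′.
GRHL1: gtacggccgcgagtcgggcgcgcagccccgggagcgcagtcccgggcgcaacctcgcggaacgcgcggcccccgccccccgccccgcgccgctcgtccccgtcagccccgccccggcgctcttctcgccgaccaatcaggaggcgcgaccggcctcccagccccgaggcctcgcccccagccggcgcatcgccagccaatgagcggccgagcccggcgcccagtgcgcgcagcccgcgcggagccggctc
GRHL3 upstream start: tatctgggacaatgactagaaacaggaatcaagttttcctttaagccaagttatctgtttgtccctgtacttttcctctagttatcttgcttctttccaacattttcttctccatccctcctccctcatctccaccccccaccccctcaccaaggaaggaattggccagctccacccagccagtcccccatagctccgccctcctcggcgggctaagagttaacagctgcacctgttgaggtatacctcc
GRHL3 downstream start: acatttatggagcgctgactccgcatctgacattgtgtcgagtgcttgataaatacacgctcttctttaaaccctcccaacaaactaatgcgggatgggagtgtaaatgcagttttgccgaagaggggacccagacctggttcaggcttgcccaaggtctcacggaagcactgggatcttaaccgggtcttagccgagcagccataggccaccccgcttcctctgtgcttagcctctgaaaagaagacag

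The GRHL1 window held 81.6% G and C bases, against 50.8% and 52.0% in the GRHL3 windows and a median of 58.0% over 35116 RefSeq windows of the same length. Neither the grainyhead-like motif AACCGGTT nor its looser form AACNNGTT, which contains it, was found in these windows or in those of CNFN, SCEL, SPRR1B and IVL, on either strand. The motifs were present in 0.117% and 3.0% of all windows. The AP-1 motif TGANTCA, a familiar element of envelope gene promoters, was present in 6.57% of all windows and in those of SCEL, IVL and SPRR1B (2 matches), but not of CNFN, GRHL1 or GRHL3. Of the genes with this motif SCEL alone had a row, and its window is shown, at chr13:77535456-77535705 on the plus strand, with the match in capitals.
SCEL: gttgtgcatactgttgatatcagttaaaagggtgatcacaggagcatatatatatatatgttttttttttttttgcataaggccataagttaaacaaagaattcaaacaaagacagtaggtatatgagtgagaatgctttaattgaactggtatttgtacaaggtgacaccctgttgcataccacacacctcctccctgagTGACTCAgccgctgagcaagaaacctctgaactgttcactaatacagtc

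Levels of different genes were compared per kilobase of exon. The alignment can lower the counts of genes with many short exons, and the lengths come from another annotation release than the counts. The order between genes is therefore approximate. In L1high cells PPL was the highest at 16.9 ± 1.71 CPM per kilobase (SD, n = 3), followed by EVPL at 9.53 ± 1.48 and TGM1 at 4.43 ± 0.470. CNFN (3.57 ± 0.411), TGM2 (2.98 ± 0.243) and GRHL3 (2.95 ± 0.377) came next, then GRHL1 (1.40 ± 0.164) and SCEL (0.290 ± 0.101). From TGM1 down to GRHL3 each gene overlapped the next over the 3 libraries, so the order of these neighbours was not resolved. The lowest TGM1 value (3.91) still lay above the highest of TGM2 (3.27) and of GRHL3 (3.38). With the longest transcript as length TGM1 stood apart above the other 3. In L1low cells PPL stood at 31.8 ± 1.13 CPM per kilobase, and TGM1 at 11.9 ± 0.981 overlapped EVPL at 11.1 ± 0.480. CNFN followed at 6.07 ± 1.38, TGM2 at 2.84 ± 0.247, GRHL3 at 1.37 ± 0.106, GRHL1 at 0.996 ± 0.0724 and SCEL at 0.256 ± 0.196, without overlap between neighbours from EVPL down to SCEL. TGM1 was below EVPL in all L1high libraries with either length. In L1low cells the mean of TGM1 was above that of EVPL with either length, and only their overlap depended on the length. With the longest transcript TGM1 stood at 16.2 ± 1.33 and EVPL at 12.4 ± 0.537 CPM per kilobase, without overlap.

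**Figure D3:**
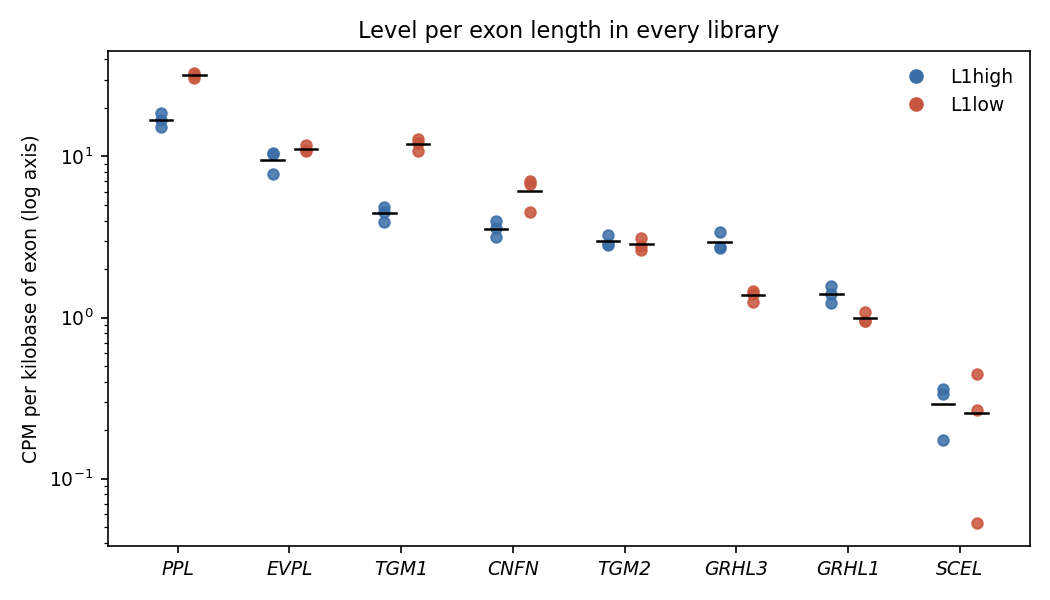
Level of each gene in CPM per kilobase of exon (log axis) in every L1high (blue) and L1low (red) library, with the group mean as a line, ordered by the L1high mean. PPL is highest in both groups and SCEL lowest, and TGM1 overlaps EVPL in L1low cells at this length.

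Further genes of cornification and of the GRHL pathway were read from 7 lists of related genes. Of 137 genes on these and on a list of the other transglutaminases, 65 had rows, and 7 were called higher and 15 lower in L1low cells (33.8%, against 7.95% of all genes). Their median log2 fold change was -0.05, against -0.0087 over all genes. The lists were written with earlier results of these data known, and the shares were not matched for level. The larger share is therefore a description and not a test.

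Of 46 further envelope precursors and associated proteins only CSTA, CALML3 and DMKN had rows. Loricrin, filaggrin and every listed small proline-rich and late envelope gene had none, and these terminal components were not analysed here. CALML3, a calmodulin-like protein of stratified epithelia, rose from 9.27 ± 1.25 to 32.1 ± 2.69 CPM (SD, n = 3 each), with a log2 fold change of 1.79 (adjusted p = 4.9e-06 by edgeR's quasi-likelihood test). The antisense gene CALML3-AS1 and a further antisense gene that overlap it rose as well (2.05 and 1.61), and without a stated strand option their reads cannot be told apart. CSTA, the protease inhibitor cystatin A that is built into envelopes, rose from 51.7 ± 8.83 to 72.7 ± 8.62 CPM (0.49, adjusted p = 0.029 by edgeR), a call lost in 4 of the 6 fits that left out a library. DMKN, dermokine, stood at 151 ± 2.16 and 146 ± 12.8 CPM and was not called. TGM3 was the only other transglutaminase with a row, at 0.853 ± 0.162 and 0.834 ± 0.284 CPM.

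Of the other plakins, 5 of 6 had rows, with 1 called higher, 1 lower and a median log2 fold change of 0.09. PLEC, which encodes plectin, the cytoskeletal linker of hemidesmosomes, rose from 326 ± 60.2 to 463 ± 29.8 CPM (0.51, adjusted p = 0.018 by edgeR's quasi-likelihood test). The call was lost without L1high replicate 1 and without L1low replicate 2. DSP, which encodes desmoplakin of the desmosomal plaque, fell from 562 ± 31.7 to 431 ± 12.3 CPM (-0.38, adjusted p = 0.0033 by edgeR), in all 13 alternatives. The plakins thus moved in both directions, with PPL the member with the largest change among those measured.

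Of 21 proteases and inhibitors of cornification, 12 had rows, and 5 were called lower and 1 higher, with a median log2 fold change of -0.30. SPINK6, an inhibitor of skin kallikreins, fell from 9.80 ± 0.997 to 3.74 ± 0.589 CPM (-1.39, adjusted p = 2.3e-04 by edgeR's quasi-likelihood test), and the kallikrein gene KLK10 from 15.6 ± 2.36 to 8.37 ± 1.10 CPM (-0.90). Both calls held in all 13 alternatives. PRSS8, the membrane protease prostasin, fell by 0.42 and its inhibitor SPINT1 by 0.30 on the log2 scale, but these calls were lost in 1 and in 4 of the 6 fits that left out a library. SPINK5, the inhibitor LEKTI, rose (0.40, lost in 4 of those fits). Genes annotated on the opposite strand of KLK10, PRSS8 and SPINT1 had log2 fold changes of -1.001, -0.38 and -0.56, and FBXO38-DT, opposite SPINK5 and SPINK6, had -0.92. Their reads cannot be told apart without the strand option.

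Among the other factors of epidermal differentiation, 20 of 24 had rows, with 5 called lower, 2 higher and a median log2 fold change of -0.02. ZNF750, a zinc finger factor required for terminal epidermal differentiation, stood at 56.8, 57.1 and 58.2 CPM in the L1high libraries and at 27.1, 27.4 and 25.3 CPM in the L1low libraries. The groups were tight and far apart, and ZNF750 fell by 1.11 on the log2 scale (adjusted p = 6.6e-06 by edgeR's quasi-likelihood test). CEBPA fell as well (-0.62), and its call was lost in 1 of the 6 fits that left out a library. PPARD (0.51) and the epithelial factor ELF3 (0.40) rose, ELF3 without its call when L1low replicate 2 was left out. TBCD, which overlaps ZNF750 on the opposite strand, stood at 93.5 CPM in L1high and 88.1 CPM in L1low cells (-0.09). A pair of genes on the opposite strand of CEBPA had log2 fold changes of -0.70 and -0.34, and genes overlapping ELF3 on the same and on the opposite strand had 0.37 and 0.04. How reads of these overlaps were assigned is not given in the sources used here.

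Of the 3 further factors of the CP2 family to which the GRHL genes belong, none was called by edgeR, and TFCP2 (59.1 ± 1.23 and 58.3 ± 0.645 CPM) and UBP1 (40.3 ± 4.14 and 42.9 ± 5.51 CPM) had log2 fold changes of -0.02 and 0.09. DESeq2 called none of the 3 either. In edgeR's quasi-likelihood test TFCP2L1, named after its value was seen, was the 1 gene with an unadjusted p under 0.05 (log2 fold change 0.32, adjusted p = 0.21). A list of 11 genes known as targets of GRHL factors left out the genes chosen by symbol. Among those left out is the known target TGM1, which rose (1.43). SPINT1 and EPCAM, both described above, are on this list. Of the 11 genes 8 had rows, with log2 fold changes between -0.35 and -0.04 (median -0.13), and 3 were called lower. The list does not tell targets of GRHL1 and GRHL3 from those of GRHL2, which had no row. TGM1 thus moved the other way from the 8 listed genes, of which 5 were not called. CLDN4, a tight junction claudin, fell from 344 ± 30.2 to 270 ± 19.2 CPM (-0.35, adjusted p = 0.021 by edgeR's quasi-likelihood test), and SPINT1 and EPCAM fell by 0.30 each. The calls of CLDN4, SPINT1 and EPCAM were lost in 4, 4 and 5 of the 6 fits that left out a library. CDH1, E-cadherin, stood at 77.6 ± 0.454 and 75.6 ± 0.680 CPM and was not called (-0.04).

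**Figure D4:**
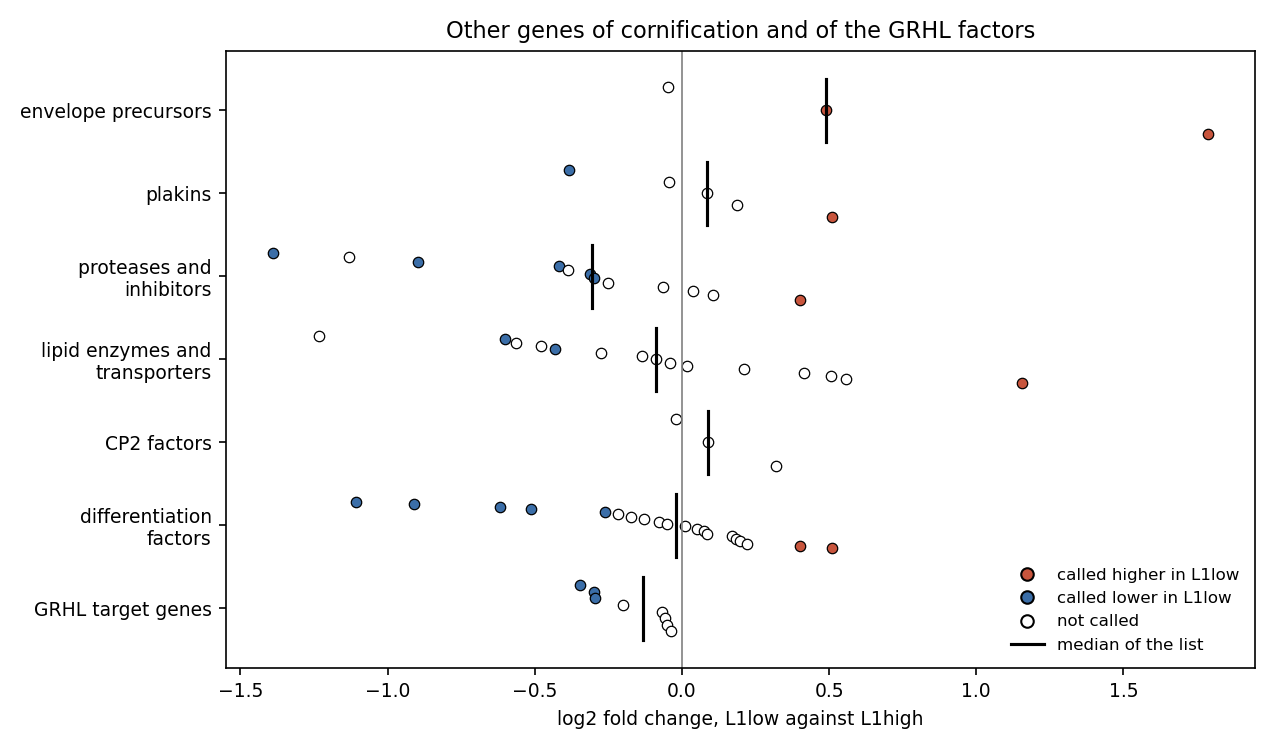
Log2 fold change of L1low against L1high cells (horizontal axis) for the genes with rows on 7 lists, 1 circle a gene, filled red where called higher, blue where called lower and white where not called, with the list median as a line. The 8 GRHL target genes on the list, which leaves out TGM1 (1.43), lie left of 0, and plakins and differentiation factors lie on both sides.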

How the data were processed

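RNA of sorted L3.6pl cells was measured in 3 L1high and 3 L1low libraries, grouped by the sample titles. The authors made stranded mRNA libraries, aligned the paired-end reads with BWA (GRCh38) and used featureCounts to assign them to Ensembl release 94 genes; the labels also name DESeq2. Versions, the strand option and the treatment of reads with several matches are not given in the sources used here. BWA leaves reads over splice junctions unplaced or clipped, which can lower the counts of genes with many short exons. The deposited values are raw counts per gene, without normalization, and each gene exceeds 1 CPM in at least 2 libraries.

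Symbols, coordinates and exon lengths came from GENCODE release 44 (GRCh38), which matched 19344 of 19469 identifiers. Counts were tested in R 4.3.3 with edgeR 4.0.16 (TMM factors, filterByExpr, quasi-likelihood test, Benjamini-Hochberg adjustment over 19467 genes, calls at an adjusted p under 0.05), after the fit had been tested on simulated data. Levels are TMM-scaled CPM. All 6 libraries were used, since the methods name no library to leave out; the study's own table omits L1high replicate 3, and that set was an alternative. The other alternatives were each other library left out, DESeq2 1.42.0, a block for the replicate number, other scalings and other filters on low counts. The genes, lists and ratios were chosen with earlier results of these data known. All 8 measured genes are named, and of the other lists up to 4 genes called in each direction with the smallest adjusted p, or the most abundant where none was called, with L1CAM and cell type markers. DMKN, CDH1, TFCP2L1 and genes that overlap others were named after their values were seen. Some genes that the rule names are not reported here. No pair of libraries matched within sampling noise, the closest being L1high replicates 1 and 3 (chi-square divided by its degrees of freedom, 3.66). The precision depends on the counts behind a gene, which ran from 4 per library for SCEL to 4534 for PPL.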

Additional observations from a re-analysis of the deposited data

How the results depend on the processing

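The number of genes called over the whole table was 1548, and between 627 and 1473 when 1 library was omitted. The lowest counts were 627 (L1low replicate 2 omitted) and 674 (L1high replicate 1 omitted). With the replicate number as a block it was 2363. Same-numbered libraries correlated with r of 0.0743, 0.0906 and 0.208 in their deviations from the group means over genes, and each library correlated best with its own number, which is a hint from the data and not the design. Of the 8 genes, 4 were called, from 3 to 4 when a library was left out. The call of GRHL1 was lost in each of those 6 fits and held in the other 7 alternatives. CNFN was called without L1low replicate 1 and with the replicate block (0.75, adjusted p = 0.026 by edgeR). TGM2 turned from -0.07 to 0.0070 without L1high replicate 3 and lay between -0.13 and 0.0070 over the omitted libraries. SCEL turned from -0.20 to 0.28 without L1low replicate 2 and lay between -0.87 and 0.28. Of 103 values of the 8 genes under the alternatives, 93 kept direction and side of the threshold; SCEL gave none where at least 10 counts in every library were required. Leaving out a library, the calls ran from 1 to 2 for envelope precursors, 1 to 2 for plakins, 2 to 7 for proteases and inhibitors, 0 to 4 for lipid enzymes, 4 to 7 for differentiation factors and 0 to 2 for GRHL targets. With the longest transcript as length, TGM2 ranked 4, GRHL3 5 and CNFN 6 by L1high level, and no rank by L1low level changed, but TGM1 no longer overlapped EVPL there. The scalings moved the median of all genes by little, to -0.0201 at most.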

Other observations

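The lipid envelope that surrounds the cornified cell is made by its own enzymes and transporters, and 15 of 22 listed genes had rows. Of these, 1 was called higher and 2 lower, and the median was -0.09 on the log2 scale. SMPD1, which encodes acid sphingomyelinase, rose from 1.42 ± 0.557 to 3.11 ± 0.303 CPM (SD, n = 3 each; log2 fold change 1.15, adjusted p = 0.027 by edgeR's quasi-likelihood test). SLC27A4, a fatty acid transport protein needed for the skin barrier, fell from 44.6 ± 2.88 to 33.0 ± 1.17 CPM (-0.43), and ABHD5, the co-activator of triglyceride lipase, from 12.1 ± 1.18 to 8.004 ± 0.788 CPM (-0.60). The calls of SMPD1, SLC27A4 and ABHD5 were lost in 3, 2 and 2 of the 6 fits that left out a library. Among them, all 3 were lost without L1high replicate 1.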
